A study of Mus musculus with 6 samples.

Results

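CD4+ T cells that carried both ICOS and the Il21 reporter were compared with CD4+ T cells that carried neither, over all genes measured. The comparison used 4 of the 6 libraries of the series, chosen by the labelled sort gate: 2 libraries of the pool called ACT_IL21 (VFP+ICOS+) and 2 of the pool called N (VFP-ICOS-). Both pools came from the spleens of C57BL/6 mice of the genotype IL21-VFP reporter on postnatal day 28, so the control pool carried the reporter allele too. The remaining 2 libraries held CD4+ cells with ICOS alone and entered only the estimate of spread between libraries. No agent was given according to the labels. Each value is a TPM, a transcript abundance scaled to a fixed total per library, and the depth behind it is unknown. Whether the replicate libraries stem from different mice is not in the labels, so the p-values measure a spread that may be technical.

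Interleukin 21 is a cytokine through which helper T cells act on B cells, and follicular helper T cells are its best known source. Such cells arise when an activated CD4+ T cell raises the transcription factor BCL6 and the chemokine receptor CXCR5, which lets it enter the B cell follicle, and lowers receptors that hold naive cells in the T cell zone. ICOS, a relative of CD28 that appears on stimulated T cells, supports this programme. Naive CD4+ T cells, in contrast, recirculate through lymphoid organs with the help of CCR7 and the sphingosine phosphate receptor S1PR1.

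The gate markers check the labels and are no finding. For Il21, both N values were 0 and the ACT_IL21 libraries measured 44.48 and 51.87 TPM. Icos, at 35.67 and 31.92 TPM in N, measured 184.97 and 226.73 TPM in ACT_IL21. Messenger RNA of Icos was therefore not absent from the pool sorted as ICOS-. Cd4 measured 357.93 and 315.56 TPM in N and 533.54 and 566.54 TPM in ACT_IL21, and the T cell receptor subunit gene Cd3e measured 1690.83 and 1274.93 TPM in N and 1990.28 and 2094.81 TPM in ACT_IL21. Transcripts of CD4 T cells were abundant in all 4 libraries, while Cd8a was at most 0.36 TPM. The other CD8 chain gene, Cd8b1, was not absent. It measured 26.68 and 18.73 TPM in N and 9.8 and 3.41 TPM in ACT_IL21. The markers named for this comparison, Maf, Gpm6b and Ly6c1, separated the pools and are described with the leading genes.

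Between 12095 and 12396 genes reached 1 TPM in each of the 4 libraries. Spearman correlations across genes were 0.971 between the N libraries, 0.957 between the ACT_IL21 libraries and 0.918 to 0.926 between a library of one pool and a library of the other. Genes are not independent replicates, so these values describe the libraries only. Of 13311 genes tested with limma on log2(TPM + 1), 677 (5.09%) passed a Benjamini-Hochberg adjusted p of 0.05. Of these, 509 (3.82% of those tested) were higher and 168 (1.26%) were lower in ACT_IL21. More than 1 log2 unit separated the pools for 450 of the higher and 128 of the lower genes. All fold changes below are ACT_IL21 minus N of log2(TPM + 1), in which the added 1 shrinks the differences of low genes. Both ACT_IL21 libraries lay above both N libraries for 31.5% of the genes tested and below both for 19.9%, so a lack of overlap alone is common. The median over all genes tested was 0.10, and it was 0.00 after median-of-ratios scaling and -0.05 after quantile normalization, so differences are best read against that shift. In bulk RNA, a lower level from fewer cells of a type and from less RNA per cell cannot be told apart.

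The number of calls depended on having both libraries of each pool. When N replicate 1 was left out it was 128, and 124 when N replicate 2 was. It was 79 and 75 when ACT_IL21 replicate 1 or 2 was left out, fits in which the remaining library of a pool was assumed to vary like the others. In all 6 fits that each left out 1 library, 59 genes passed, 50 of them higher and 9 lower. The sort markers Il21 and Icos are among these genes and are no finding. Every such fit tested the same genes, filtered for 1 TPM in 2 or more of all 6 libraries, so passing that filter was not retested. The share of genes called also rose with the level of the higher pool, from 0.805% under 5 TPM to 11.6% at 100 TPM and above.

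**Figure D1:**
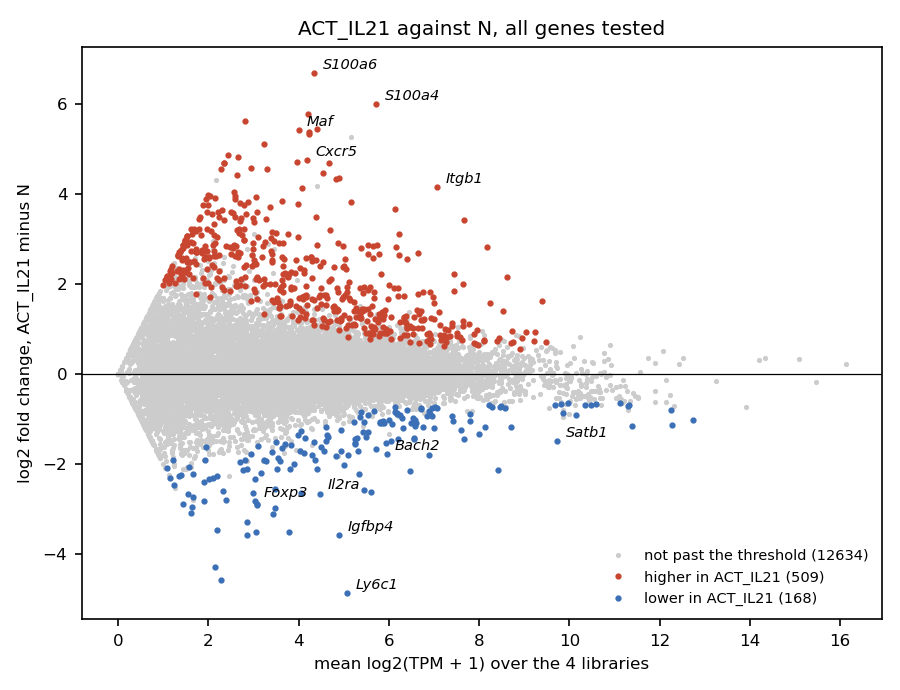
Log2 fold change (ACT_IL21 minus N, vertical axis) against the mean log2(TPM + 1) over the 4 libraries (horizontal axis), with 1 point per gene tested. Red points are the 509 genes higher and blue points the 168 genes lower in ACT_IL21; S100a6 and S100a4 lie at the top and Ly6c1 at the bottom.

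The largest rise was in S100a6 and S100a4, neighbouring genes of small calcium-binding proteins that bind cytoskeletal partners. S100a6 measured 1.05 and 0.96 TPM in N and 194.27 and 219.32 TPM in ACT_IL21, a log2 fold change of 6.69 (SE 0.26, adjusted p = 4.41e-05). S100a4 measured 6.04 and 5.16 TPM in N and 402.29 and 441.89 TPM in ACT_IL21, a log2 fold change of 6.00 (SE 0.18, adjusted p = 1.3e-05). Both genes were low in N and high in ACT_IL21. The genes with the largest rises and falls were picked among called genes with no overlap between pools, so their separation is by choice. In GRCm38, S100a4 lies at chromosome 3, 90603771 to 90606045, plus strand and S100a6 at chromosome 3, 90612882 to 90624181, plus strand.

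Receptors for chemokines came next. Cxcr3, the receptor for interferon-induced chemokines (chromosome X, 101731535 to 101734269, minus strand), measured 2.24 and 0.91 TPM in N and 123.47 and 151.63 TPM in ACT_IL21 (log2 fold change 5.79, SE 0.31, adjusted p = 0.000105). Ccr4, a receptor for skin and thymus chemokines (chromosome 9, 114490316 to 114504916, minus strand), measured 1.84 and 2.55 TPM in N and 145.58 and 131.67 TPM in ACT_IL21 (log2 fold change 5.46, SE 0.23, adjusted p = 4.7e-05). Both receptors were barely measured in N and abundant in both ACT_IL21 libraries.

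The transcription factor gene Maf, a driver of Il21 and Il4 transcription in helper T cells (chromosome 8, 115682942 to 115707794, minus strand), measured 1.24 and 1.64 TPM in N and 100.35 and 107.29 TPM in ACT_IL21 (log2 fold change 5.43, SE 0.23, adjusted p = 4.7e-05). Gm15655, which overlaps it on the opposite strand and rose too, cannot be separated from it because the strand setting is not given in the sources used here. Gpm6b, a membrane glycoprotein best known from neurons (chromosome X, 166238911 to 166388988, plus strand), measured 1.67 and 2.12 TPM in N and 127.73 and 112.83 TPM in ACT_IL21 (log2 fold change 5.39, SE 0.35, adjusted p = 0.000256). Tigit, an inhibitory receptor for nectins, measured 2.25 and 1.72 TPM in N and 125.43 and 112.52 TPM in ACT_IL21 (log2 fold change 5.33, SE 0.23, adjusted p = 4.7e-05). In all 3 genes the 2 ACT_IL21 libraries stood far above both N libraries.

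Angptl2, a secreted angiopoietin-like protein, measured 0.46 and 0.73 TPM in N and 58.18 and 49.57 TPM in ACT_IL21 (log2 fold change 5.11, adjusted p = 0.00022). It overlaps Ralgps1 on the opposite strand. Casp1, the inflammasome protease, measured 2.16 and 6.82 TPM in N and 127.53 and 127.92 TPM in ACT_IL21 (log2 fold change 4.69, adjusted p = 0.00129). Its N libraries differed from each other more than its ACT_IL21 libraries did. Ces2c, a carboxylesterase, and Stfa3, a cystatin-type protease inhibitor, were listed at 0 in both N libraries. In ACT_IL21, Ces2c measured 23.61 and 25.93 TPM. Stfa3 measured 33.88 and 15.09 TPM in that pool. The Stfa3 libraries differed from each other by more than those of Ces2c, and both genes have close relatives among which RSEM divides shared reads.

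S100a6, S100a4, Cxcr3, Ccr4, Maf, Gpm6b, Tigit, Angptl2 and Ces2c kept their calls with any 1 of the 6 libraries left out. Angptl2 and Ces2c lay below 1 TPM in both N libraries, so they entered the test without N, and these fits did not retest that. Casp1 lost its call without either ACT_IL21 library (adjusted p = 0.0625 to 0.0627). Stfa3 lost its call without N replicate 2 (adjusted p = 0.0506).

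The largest fall was in Ly6c1, a surface protein of the Ly6 family (chromosome 15, 75044018 to 75048830, minus strand). It measured 178.67 and 183.19 TPM in N and 6.6 and 4.11 TPM in ACT_IL21 (log2 fold change -4.87, SE 0.27, adjusted p = 0.000138). Its near copy Ly6c2, whose coding sequence matched that of Ly6c1 at 97.7% of 393 bases, measured 10.39 and 6.95 TPM in N and 10.12 and 11.2 TPM in ACT_IL21 (adjusted p = 0.648). RSEM divides reads that fit both genes, so the split between them is uncertain. The N libraries of Ly6c1 lay far above both ACT_IL21 libraries, whereas the Ly6c2 libraries of the pools overlapped.

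Igfbp4, a binding protein for insulin-like growth factors that marks naive T cells (chromosome 11, 99041244 to 99054392, plus strand), measured 101.24 and 103.08 TPM in N and 6.87 and 8.46 TPM in ACT_IL21 (log2 fold change -3.58, SE 0.25, adjusted p = 0.000297). Atp8b4, a lipid flippase of the P4 ATPase family, measured 46.82 and 43.9 TPM in N and 4.89 and 1.79 TPM in ACT_IL21 (log2 fold change -3.51, adjusted p = 0.00315). Tlr7, the endosomal sensor of single-stranded RNA, measured 13.24 and 15.24 TPM in N and 0.35 and 0.42 TPM in ACT_IL21 (log2 fold change -3.46, adjusted p = 0.00234). Libraries that do not overlap between the pools were a condition for choosing these genes.

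The other genes with large falls follow. Pdlim4, a cytoskeletal protein with PDZ and LIM domains, measured 28.52 and 16.17 TPM in N and 0.54 and 2.4 TPM in ACT_IL21. Amigo2, a leucine-rich adhesion protein, measured 29.24 and 31.75 TPM in N and 3.05 and 2.3 TPM in ACT_IL21. Dntt, the template-independent DNA polymerase of developing lymphocytes, measured 5.84 and 10.73 TPM in N and 0 and 0.12 TPM in ACT_IL21. These 3 genes were low in both ACT_IL21 libraries. The alcohol dehydrogenase gene Adh1 measured 19.33 and 25.03 TPM in N and 1.36 and 3.02 TPM in ACT_IL21. Ampd1, an AMP deaminase, measured 30.6 and 15.84 TPM in N and 3.99 and 0.95 TPM in ACT_IL21. For Cnn3, a calponin, the values were 10.74 and 15.03 TPM in N and 1.85 and 0.37 TPM in ACT_IL21. Bend5 and Igsf23 are less studied genes. Bend5 measured 6.42 and 6.34 TPM in N and 0.35 and 0 TPM in ACT_IL21. Igsf23, of the immunoglobulin superfamily, measured 21.35 and 16.76 TPM in N and 2.75 and 1.71 TPM in ACT_IL21. The log2 fold changes of these 8 genes ran from -3.30 for Pdlim4 to -2.64 for Igsf23. That both N libraries lay above both ACT_IL21 libraries was a condition of their choice. Amigo2 overlaps Pced1b on the opposite strand. The remaining leading genes, Prf1, Foxp3 and Il2ra, are given with their groups.

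Ly6c1 and Igfbp4 kept their calls with any 1 of the 6 libraries left out. Pdlim4, Amigo2, Dntt, Adh1, Ampd1, Cnn3, Bend5 and Igsf23 lost their calls without any 1 of the 4 N and ACT_IL21 libraries (adjusted p = 0.0628 to 0.354). Atp8b4 lost its call without N replicate 1, N replicate 2 or ACT_IL21 replicate 2 (adjusted p = 0.0528 to 0.063). Tlr7 lost its call without either N library (adjusted p = 0.052 to 0.06).

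**Figure D2:**
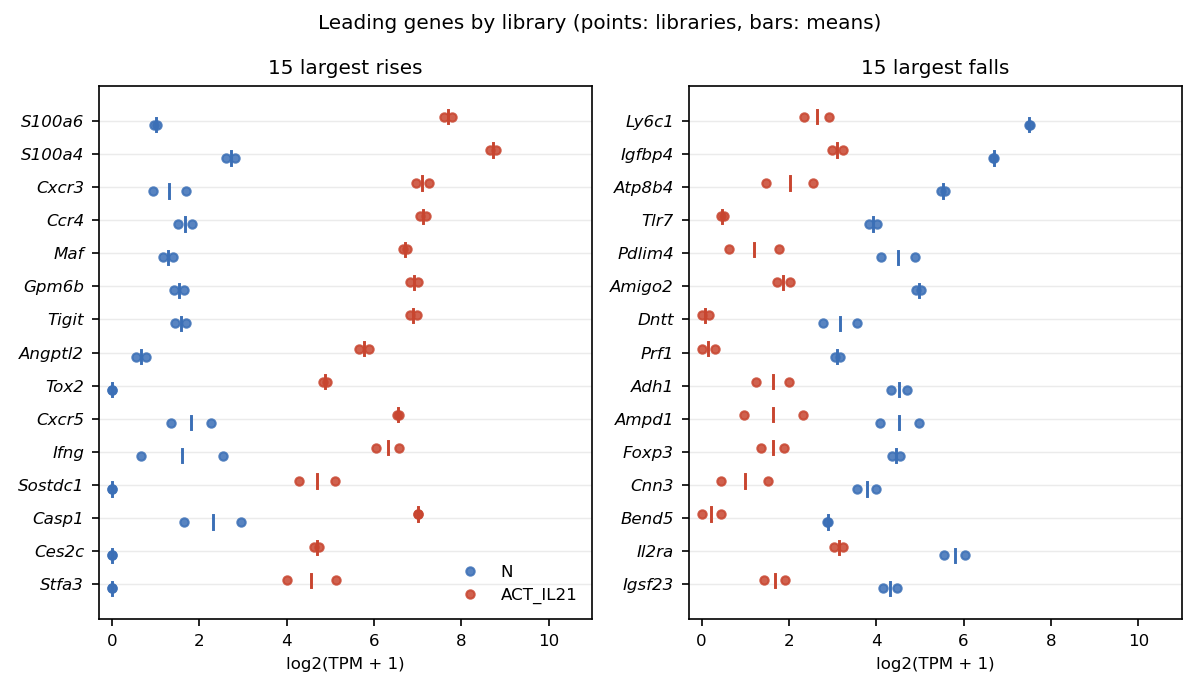
Log2(TPM + 1) (horizontal axis) of the 15 genes with the largest rises (left) and the 15 with the largest falls (right) among the named genes; points are libraries (blue N, red ACT_IL21) and bars are pool means. The pools are separated in every row because only genes without overlap between pools were chosen. Tox2, Sostdc1, Ces2c and Stfa3 sit at 0 in both N libraries.

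Promoter sequences are shown for S100a4 and S100a6, which moved together, for Ccr4, whose promoter held matches to 2 of the motifs searched, and for Ly6c1 beside Ly6c2, near copies of which 1 fell. Each run is the 250 bases before the start of the RefSeq gene in GRCm38.p6, written 5' to 3' along the gene's strand. Capitals mark every match to the 5 motifs searched on both strands, of which 3 had one here: AP-1 TGANTCA, TCF/LEF CTTTGAN (N is any base) and ROR AGGTCA. The windows are chr3:90603520-90603769 and chr3:90612644-90612893 (plus strand), chr9:114496545-114496794, chr15:75048838-75049087 and chr15:75111972-75112221 (minus strand). That of Ccr4 lies inside the longer extent that GENCODE gives the gene.
S100a4: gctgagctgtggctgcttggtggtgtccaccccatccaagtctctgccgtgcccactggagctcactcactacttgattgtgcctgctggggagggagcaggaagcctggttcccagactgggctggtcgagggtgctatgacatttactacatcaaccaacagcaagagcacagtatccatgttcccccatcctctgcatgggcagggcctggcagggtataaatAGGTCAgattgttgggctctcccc
S100a6: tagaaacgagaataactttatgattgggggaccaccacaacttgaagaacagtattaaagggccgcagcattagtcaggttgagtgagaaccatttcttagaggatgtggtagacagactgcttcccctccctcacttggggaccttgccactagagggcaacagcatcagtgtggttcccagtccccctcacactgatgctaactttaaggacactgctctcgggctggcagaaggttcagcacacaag
Ccr4: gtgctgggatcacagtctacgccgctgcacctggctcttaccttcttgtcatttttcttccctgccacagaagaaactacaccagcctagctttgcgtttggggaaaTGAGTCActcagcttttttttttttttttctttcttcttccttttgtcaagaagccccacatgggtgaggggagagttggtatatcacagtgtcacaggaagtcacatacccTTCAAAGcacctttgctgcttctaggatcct
Ly6c1: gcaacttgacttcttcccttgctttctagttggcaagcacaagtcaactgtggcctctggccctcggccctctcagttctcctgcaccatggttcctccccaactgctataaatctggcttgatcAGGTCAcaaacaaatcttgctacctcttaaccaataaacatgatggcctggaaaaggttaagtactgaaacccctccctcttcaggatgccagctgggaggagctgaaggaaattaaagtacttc
Ly6c2: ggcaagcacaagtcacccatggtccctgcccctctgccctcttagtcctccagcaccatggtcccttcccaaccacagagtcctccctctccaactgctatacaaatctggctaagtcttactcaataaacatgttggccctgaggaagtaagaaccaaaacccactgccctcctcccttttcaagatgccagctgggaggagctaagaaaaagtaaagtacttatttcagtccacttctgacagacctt

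The Ccr4 promoter held an AP-1 match starting at -143 and a TCF/LEF match starting at -31. Ly6c1 and S100a4 each held a ROR half-site, starting at -125 and -24, and no match to the motifs searched lay in the windows of S100a6 or Ly6c2. The Ly6c1 and Ly6c2 windows were identical at 57.7% of aligned positions. Promoters were matched for 8646 of the 13311 genes tested, 344 of them higher and 99 lower in ACT_IL21. The AP-1 motif was found in 4.0% of all these promoters, 7.3% of the higher genes' and 4.0% of the lower genes'. TCF/LEF was found in 10.7%, 13.1% and 16.2%, the ROR half-site in 10.7%, 9.9% and 11.1%, KLF GGGTGTG in 6.9%, 10.8% and 7.1%, and FOXO GTAAACA in 2.1%, 2.3% and 3.0%. The motifs and promoters were chosen with the results in view, a match is a description and no site, and no share was tested against another.

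The gene lists below are described by counts. The background for each of them is the share of all genes tested that was called, 3.82% higher and 1.26% lower, and the median of 0.10 over all genes. That background is not matched for level, so lists of abundant genes can exceed it for that reason. Of 1597 genes at 100 TPM and above in the higher pool, 122 were higher and 63 lower (11.6% called). Genes below 1 TPM in both N libraries passed the filter on low values without N. Counts and medians that include them are descriptions. Of the 677 called, 33 were listed at 0 in both N libraries, and the number at 0 is given with each list. Others lay above 0 and below 1 TPM there and are not counted apart, such as Angptl2, Cxcl10, Ccr6, Csf1, Rgs16, Slc43a1 and Cybb. Il4, Il2 and Cd22 were at 0 in 1 N library and below 1 TPM in the other. Tlr7, Dntt, Prf1 and Bend5 lay below 1 TPM in both ACT_IL21 libraries and passed without that pool. A gene can be in several lists and is then counted in each. They were chosen with earlier results of these data known. Tcf7, Bcl6, Tox, S1pr1, Cd40lg, Il17a, Tbx21, Gata3, Pdcd1, Klf2, Anxa5, Lgals9, Il2rg, Nr4a1 and Zbtb16, and the markers of other cell types that were low or at 0, fall outside the rule for named genes and were chosen after their values were seen.

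**Figure D3:**
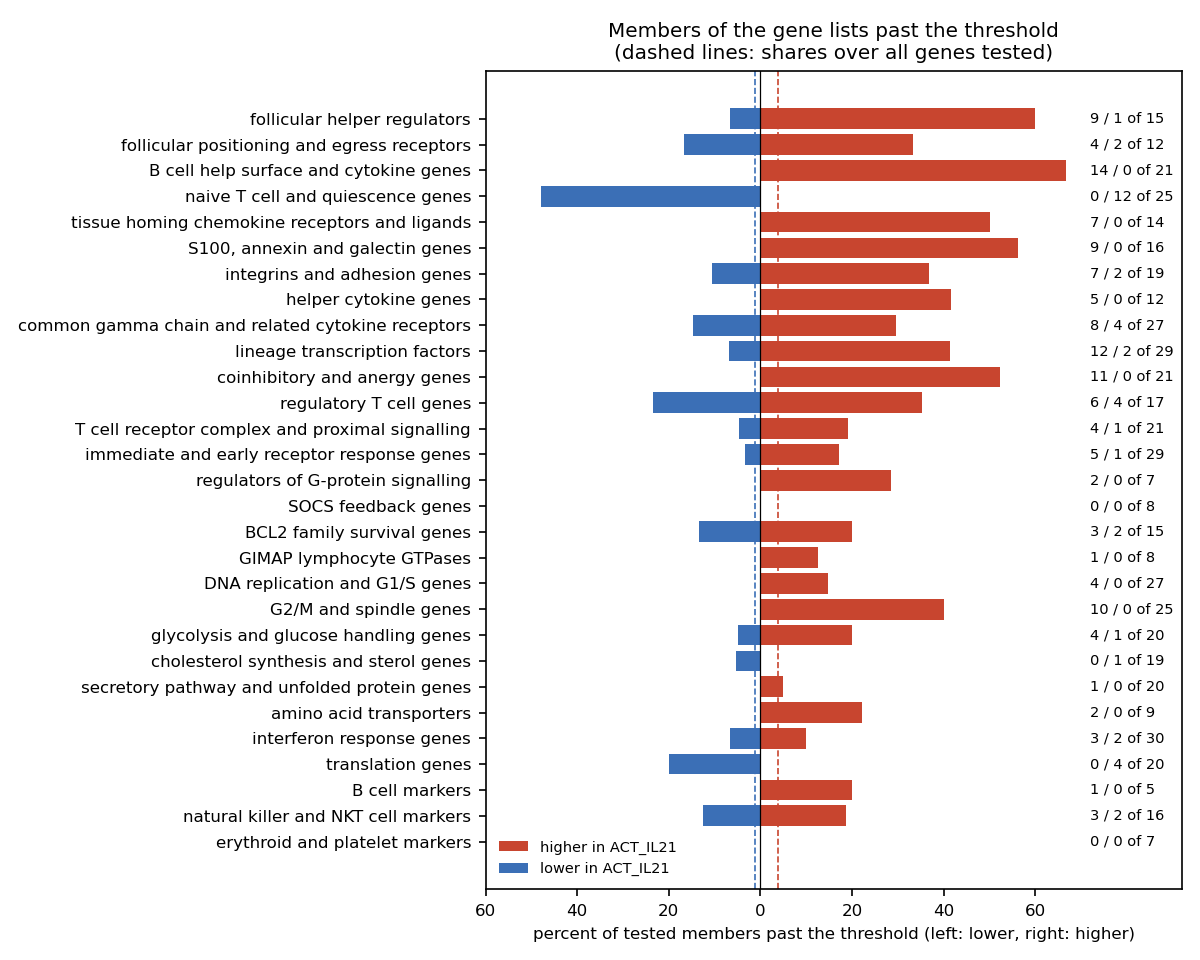
Percent of each list's tested members higher (red, right) and lower (blue, left) in ACT_IL21, with the counts at the right edge. Dashed lines are the shares over all genes tested, 3.82% and 1.26%, and are not matched for level. The naive T cell list extends left, and the B cell help, S100 and follicular helper regulator lists extend right.

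The follicular helper regulator list held transcription factor genes, the coactivator gene Pou2af1 and the secreted factor gene Sostdc1. Of its members, 9 of 15 tested members (15 listed) rose and 1 fell, with a median log2 fold change of 1.10, counting 3 listed at 0 in N (calls in either direction with 1 N or ACT_IL21 library left out: 3 to 4). Without Sostdc1, 8 of 14 tested members rose. Tox2, an HMG box factor of follicular helper cells, and Sostdc1, a secreted BMP and WNT antagonist made by these cells, were listed at 0 in both N libraries. Tox2 measured 27.34 and 29.21 TPM in ACT_IL21. Sostdc1 measured 18.48 and 33.8 TPM there. Irf4, a factor induced in proportion to T cell receptor signal, measured 4.93 and 5.82 TPM in N and 30.92 and 42.1 in ACT_IL21 (log2 fold change 2.54, adjusted p = 0.00292). Pou2af1, a coactivator of octamer factors, measured 21.62 and 20.8 TPM in N and 78.19 and 90.72 TPM in ACT_IL21 (log2 fold change 1.94, adjusted p = 0.00473). All ACT_IL21 libraries of these genes lay above all N libraries, which for Tox2 and Sostdc1 was a condition of their choice as leading genes. Irf4 and Pou2af1 were named for their low p. Lef1, the WNT-responsive factor abundant in naive cells, fell from 401.31 and 405.9 to 148.68 and 172.08 TPM (log2 fold change -1.33, adjusted p = 0.00304). Its relative Tcf7 measured 1207.96 and 961.47 TPM in N and 997.18 and 1046.05 in ACT_IL21, with overlapping libraries and an adjusted p of 0.851. Bcl6, the defining factor of follicular helper cells, measured 22.9 and 24.6 TPM in N and 55.65 and 48.69 TPM in ACT_IL21 (log2 fold change 1.10, adjusted p = 0.0282). Tox2 and Sostdc1 kept their calls with any 1 of the 6 libraries left out. Both passed the filter on low values without N, and these fits did not retest that. Pou2af1 and Lef1 lost their calls without any 1 of the 4 N and ACT_IL21 libraries (adjusted p = 0.052 to 0.0973). Irf4 lost its call without N replicate 1, ACT_IL21 replicate 1 or ACT_IL21 replicate 2 (adjusted p = 0.0506 to 0.0722). Bcl6 and Tox passed in 2 of the 6 fits that left out a library.

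Of the follicular positioning and egress receptor list, 4 of 12 tested members (13 listed) rose and 2 fell, with a median log2 fold change of 0.30 (calls in either direction with 1 N or ACT_IL21 library left out: 3). Cxcr5, which draws cells to the follicle (chromosome 9, 44511787 to 44561877, minus strand), measured 3.85 and 1.54 TPM in N and 95.03 and 91.91 TPM in ACT_IL21 (log2 fold change 4.75, SE 0.35, adjusted p = 0.000378), and overlaps Bcl9l on the opposite strand. Ccr7, the receptor for T zone chemokines, measured 425.38 and 258.09 TPM in N and 127.59 and 115.33 in ACT_IL21 (log2 fold change -1.44, adjusted p = 0.0322). The receptor that enters follicles was thus higher and the T zone receptor lower. The pools did not overlap in either, which for Cxcr5 was a condition of its choice as a leading gene. Ccr7 was named for its low p. S1pr2, a receptor that confines cells to the germinal centre, measured 1.35 and 0.66 TPM in N and 5.62 and 8.89 TPM in ACT_IL21 (adjusted p = 0.0465), and Ccr6 0.44 and 0.81 TPM in N and 16.99 and 7.3 TPM in ACT_IL21 (adjusted p = 0.027). Both rose from low levels. S1pr1, whose loss retains cells in lymphoid organs, measured 536.5 and 463.2 TPM in N and 313.16 and 349.02 in ACT_IL21 (adjusted p = 0.0653), which misses the threshold. Cxcr5 kept its call with any 1 of the 6 libraries left out. Ccr7 and Ccr6 lost their calls without any 1 of the 4 N and ACT_IL21 libraries (adjusted p = 0.0774 to 0.259). S1pr2 lost its call without any 1 of the 6 libraries (adjusted p = 0.05 to 0.355).

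Tissue homing receptors and chemokines moved in 1 direction only among called members. Of that list, 7 of 14 tested members (16 listed) rose and 0 fell, with a median log2 fold change of 2.26, counting 1 listed at 0 in N (calls in either direction with 1 N or ACT_IL21 library left out: 4 to 5). Ccr2 measured 1.51 and 0.58 TPM in N and 28.04 and 14.11 in ACT_IL21 (log2 fold change 3.39, adjusted p = 0.00264), and Cxcr6, which overlaps Fyco1 on the opposite strand, 7.44 and 9.14 TPM in N and 39.14 and 22.02 TPM in ACT_IL21 (log2 fold change 1.72, adjusted p = 0.0146). Ccl5, a chemokine of effector and cytotoxic T cells, measured 16.15 and 13.61 TPM in N and 144.66 and 83.13 TPM in ACT_IL21 (log2 fold change 2.81, adjusted p = 0.00249). Cxcl10, a ligand of CXCR3, measured 0.87 and 0.3 TPM in N and 16.77 and 29.29 TPM in ACT_IL21 (log2 fold change 3.90, adjusted p = 0.00197). The 4 genes, named for their low p, had no overlap between pools, as 31.5% of all genes tested had in that direction. Ccr2 lost its call without ACT_IL21 replicate 1 (adjusted p = 0.0604). Cxcr6 lost its call without any 1 of the 4 N and ACT_IL21 libraries (adjusted p = 0.0548 to 0.147). Ccl5 lost its call without N replicate 2 or ACT_IL21 replicate 1 (adjusted p = 0.0512 to 0.0623). Cxcl10 lost its call without ACT_IL21 replicate 2 (adjusted p = 0.0567).

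Called genes of B cell help were all higher in ACT_IL21. Of that list, 14 of 21 tested members (23 listed) rose and 0 fell, with a median log2 fold change of 1.09, counting 1 listed at 0 in N (calls in either direction with 1 N or ACT_IL21 library left out: 2 to 7). Cd200, an inhibitory ligand raised on follicular helper cells, measured 19.38 and 22.15 TPM in N and 145.66 and 128.38 TPM in ACT_IL21 (log2 fold change 2.66, SE 0.19, adjusted p = 0.000297). Slamf6, a homophilic receptor of the T cell to B cell contact, measured 98.76 and 83.09 TPM in N and 344.28 and 317.63 TPM in ACT_IL21 (log2 fold change 1.86, adjusted p = 0.000816). Ctla4, the competitor of CD28, measured 33.8 and 43.07 TPM in N and 249.71 and 256.52 TPM in ACT_IL21 (log2 fold change 2.70, adjusted p = 0.00105). These 3 genes had no overlap between the pools, and neither had the next 3. All were named for their low p, and 31.5% of all genes tested lay apart in that direction. The TNF family ligand gene Tnfsf11, which codes for RANKL, measured 1.51 and 3.21 TPM in N and 41.53 and 51.14 TPM in ACT_IL21 (log2 fold change 3.86, adjusted p = 0.00149). Tnfsf8, which codes for CD30 ligand, measured 37.72 and 36.23 TPM in N and 128.62 and 157.16 TPM in ACT_IL21 (log2 fold change 1.92, adjusted p = 0.00175). Il4 measured 0.51 and 0 TPM in N and 15.82 and 11.49 TPM in ACT_IL21 (adjusted p = 0.00234). The core helper molecule Cd40lg measured 179.73 and 166.18 TPM in N and 199.44 and 190.52 in ACT_IL21 (adjusted p = 0.592). Cd200 and Slamf6 kept their calls with any 1 of the 6 libraries left out. Ctla4, Tnfsf11 and Il4 lost their calls without either ACT_IL21 library (adjusted p = 0.0566 to 0.0654). Tnfsf8 lost its call without ACT_IL21 replicate 2 (adjusted p = 0.0567).

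Helper cytokines of different lineages were measured side by side. Of the helper cytokine list, 5 of 12 tested members (19 listed) rose and 0 fell, with a median log2 fold change of 1.0, counting 1 listed at 0 in N (calls in either direction with 1 N or ACT_IL21 library left out: 0 to 2). Ifng, the type 1 cytokine, measured 0.58 and 4.83 TPM in N and 65.53 and 94.58 TPM in ACT_IL21 (log2 fold change 4.72, SE 0.54, adjusted p = 0.00316). In proportion, its N libraries differed from each other more than its ACT_IL21 libraries did. Il2 measured 0.63 and 0 TPM in N and 4.51 and 8.31 TPM in ACT_IL21 (adjusted p = 0.0301), and Csf1, the macrophage growth factor, 0.07 and 0.57 TPM in N and 8.06 and 7.03 TPM in ACT_IL21 (adjusted p = 0.0176). Il10, at 0 in each N library, measured 9.51 and 5.67 TPM in ACT_IL21. Il2, Il4 and Csf1 were below 1 TPM in both N libraries, so they too passed the filter without N. Il17a was listed at 0 in all 4 libraries. Il2, Csf1 and Il10 lost their calls without any 1 of the 4 N and ACT_IL21 libraries (adjusted p = 0.115 to 0.277). Ifng lost its call without either ACT_IL21 library (adjusted p = 0.0721 to 0.0924).

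Lineage factors rose in a mixed set. Of the lineage transcription factor list, 12 of 29 tested members (29 listed) rose and 2 fell, with a median log2 fold change of 0.74, counting 2 listed at 0 in N (calls in either direction with 1 N or ACT_IL21 library left out: 3 to 4). Bhlhe40, a basic helix-loop-helix regulator of cytokine production, measured 4.49 and 5.94 TPM in N and 62.34 and 75.8 in ACT_IL21 (log2 fold change 3.50, adjusted p = 0.00022). Rora, an orphan nuclear receptor, measured 6.63 and 7.9 TPM in N and 50.32 and 42.11 TPM in ACT_IL21 (log2 fold change 2.51, adjusted p = 0.000816). Id2, an inhibitor of E proteins, measured 50.71 and 54.87 TPM in N and 210.26 and 159.19 TPM in ACT_IL21, and Runx2 measured 2.35 and 2.54 TPM in N and 19.95 and 15.65 TPM in ACT_IL21. Tbx21, the type 1 master factor, was listed at 0 in N and measured 4.23 and 6.54 TPM in ACT_IL21. Gata3, the type 2 factor, measured 20.26 and 16.82 TPM in N and 31.16 and 42.9 TPM in ACT_IL21 (adjusted p = 0.0702). Bhlhe40 and Rora kept their calls with any 1 of the 6 libraries left out. Id2 lost its call without ACT_IL21 replicate 1 (adjusted p = 0.0604). Runx2 lost its call without any 1 of the 4 N and ACT_IL21 libraries (adjusted p = 0.0861 to 0.11). Tbx21 passed in 2 of these 6 fits.

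Regulatory T cell genes moved both ways. Of that list, 6 of 17 tested members (18 listed) rose and 4 fell, with a median log2 fold change of 1.04 (calls in either direction with 1 N or ACT_IL21 library left out: 4 to 6). Foxp3, the defining factor of regulatory cells (chromosome X, 7573644 to 7595245, plus strand), measured 22.19 and 19.38 TPM in N and 1.57 and 2.69 TPM in ACT_IL21 (log2 fold change -2.82, SE 0.31, adjusted p = 0.00251); it overlaps Ppp1r3f and Ccdc22 on the opposite strand. Il2ra, the high-affinity interleukin 2 receptor subunit (chromosome 2, 11642807 to 11693193, plus strand), measured 46.08 and 64.23 TPM in N and 7.16 and 8.48 TPM in ACT_IL21 (log2 fold change -2.66, adjusted p = 0.000816). The other called genes named here rose. Ikzf2, which codes for Helios, rose from 18.85 and 28.82 to 85.08 and 90.24 TPM. Nrp1, a semaphorin receptor, rose from 6.91 and 6.84 to 50.21 and 44.12 TPM. Nt5e, the ecto-enzyme CD73 that makes adenosine, rose from 11.98 and 13.81 to 70.22 and 75.69 TPM. In all 5 genes the pools did not overlap, which for Foxp3 and Il2ra was a condition of their choice as leading genes. Ikzf2, Nrp1 and Nt5e were named for their low p. Il2ra, Nrp1 and Nt5e kept their calls with any 1 of the 6 libraries left out. Foxp3 lost its call without either N library (adjusted p = 0.0513 to 0.0606). Ikzf2 lost its call without either ACT_IL21 library (adjusted p = 0.082 to 0.0912).

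Coinhibitory and anergy genes were called in 1 direction. Of that list, 11 of 21 tested members (22 listed) rose and 0 fell, with a median log2 fold change of 1.82 (calls in either direction with 1 N or ACT_IL21 library left out: 3 to 6). Nfatc1, the calcium-regulated factor, measured 68.79 and 57.08 TPM in N and 209.64 and 241.33 in ACT_IL21 (log2 fold change 1.83, adjusted p = 0.00129). Entpd1, which codes for the ATP-degrading enzyme CD39, measured 1.02 and 1.13 TPM in N and 14.6 and 13.02 TPM in ACT_IL21 (log2 fold change 2.83, adjusted p = 0.00395). Pdcd1, which codes for PD-1, measured 0.24 and 1.14 TPM in N and 24.83 and 14.1 TPM in ACT_IL21 (log2 fold change 3.60, adjusted p = 0.0051). Nfatc1 lost its call without ACT_IL21 replicate 2 (adjusted p = 0.0567). Entpd1 lost its call without any 1 of the 4 N and ACT_IL21 libraries (adjusted p = 0.0532 to 0.0718). Pdcd1 passed in 3 of these 6 fits.

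Genes of naive and quiescent T cells fell or did not pass. Of that list, 0 of 25 tested members (25 listed) rose and 12 fell, with a median log2 fold change of -0.78 (calls in either direction with 1 N or ACT_IL21 library left out: 4 to 5). Bach2, a repressor that holds T cells from effector fates, measured 115.35 and 111.51 TPM in N and 31.62 and 32.92 TPM in ACT_IL21 (log2 fold change -1.78, SE 0.17, adjusted p = 0.0015). Satb1, a chromatin organiser of naive and regulatory cells, measured 1282.11 and 1578.83 TPM in N and 543.03 and 477.24 TPM in ACT_IL21 (log2 fold change -1.48, adjusted p = 0.00245). Klf2, which drives S1pr1, measured 157.24 and 151.72 TPM in N and 93.05 and 123.42 in ACT_IL21 (adjusted p = 0.205). Lef1, Igfbp4 and Ly6c1 of this list are given above. Bach2 kept its call with any 1 of the 6 libraries left out. Satb1 lost its call without either ACT_IL21 library (adjusted p = 0.0654 to 0.0828).

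Called S100, annexin and galectin genes all rose. Of that list, 9 of 16 tested members (18 listed) rose and 0 fell, with a median log2 fold change of 2.08, counting 1 listed at 0 in N (calls in either direction with 1 N or ACT_IL21 library left out: 7). S100a11 measured 48.47 and 75.6 TPM in N and 643.13 and 680.72 in ACT_IL21 (log2 fold change 3.43, adjusted p = 0.00022), and S100a10, the partner of annexin A2, 188.7 and 182.59 TPM in N and 824.67 and 848.89 TPM in ACT_IL21 (log2 fold change 2.17, adjusted p = 0.000297). Anxa2 measured 3.52 and 4.42 TPM in N and 120.61 and 96.57 TPM in ACT_IL21 (log2 fold change 4.46, adjusted p = 0.000297). Ahnak, a giant scaffold protein that binds annexin A2 and S100A10, measured 16.4 and 21.21 TPM in N and 228.71 and 274.29 TPM in ACT_IL21 (log2 fold change 3.68, adjusted p = 0.000105). S100a11, S100a10, Anxa2 and Ahnak kept their calls with any 1 of the 6 libraries left out. Not every abundant member was called. Anxa5, which binds exposed phosphatidylserine, measured 66.6 and 85.27 TPM in N and 75.26 and 93.79 TPM in ACT_IL21, with overlapping libraries (adjusted p = 0.829). Lgals9, a galectin, measured 133.52 and 128.54 TPM in N and 115.52 and 145.24 TPM in ACT_IL21 (adjusted p = 0.982).

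Adhesion genes were split. Of that list, 7 of 19 tested members (19 listed) rose and 2 fell, with a median log2 fold change of 0.31, counting 1 listed at 0 in N (calls in either direction with 1 N or ACT_IL21 library left out: 3 to 4). Itgb1, the shared beta chain of many integrins, measured 27.07 and 35.17 TPM in N and 498.48 and 650.91 TPM in ACT_IL21 (log2 fold change 4.16, SE 0.21, adjusted p = 0.000105). Cd44, the hyaluronan receptor that marks activated cells, measured 26.95 and 22.28 TPM in N and 234.46 and 205.17 TPM in ACT_IL21 (log2 fold change 3.11, adjusted p = 0.000105). Both genes stood far higher in ACT_IL21 than in N. Itga4, a partner of ITGB1, measured 221.74 and 229.28 TPM in N and 558.7 and 640.76 TPM in ACT_IL21 (adjusted p = 0.00382), and Itgav 23.49 and 20.88 TPM in N and 60.1 and 66.21 TPM in ACT_IL21 (adjusted p = 0.00546). Itgb3, the beta chain that pairs with ITGAV, fell from 69.86 and 56.75 to 17.46 and 17.35 TPM (log2 fold change -1.80, adjusted p = 0.00269). Itgb1 and Cd44 kept their calls with any 1 of the 6 libraries left out. Itga4 and Itgav lost their calls without any 1 of the 4 N and ACT_IL21 libraries (adjusted p = 0.0559 to 0.0924). Itgb3 lost its call without N replicate 1, ACT_IL21 replicate 1 or ACT_IL21 replicate 2 (adjusted p = 0.0582 to 0.0627).

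Receptors of the common gamma chain family moved apart. Of the cytokine receptor list, 8 of 27 tested members (27 listed) rose and 4 fell, with a median log2 fold change of 0.60, counting 1 listed at 0 in N (calls in either direction with 1 N or ACT_IL21 library left out: 1 to 3). Il2rb, the signalling beta chain shared by interleukin 2 and 15, measured 55.48 and 57.53 TPM in N and 194.57 and 208.65 TPM in ACT_IL21 (log2 fold change 1.82, adjusted p = 0.00635). Il7r, the survival receptor of resting cells, fell from 416.04 and 426.72 to 170.81 and 204.56 TPM (log2 fold change -1.17, adjusted p = 0.00602). Il2rg, the shared gamma chain, measured 846.55 and 783.96 TPM in N and 691.8 and 769.21 TPM in ACT_IL21 (adjusted p = 0.605). Il9r, listed at 0 in N, measured 10.77 and 14.45 TPM in ACT_IL21. Ifngr2, a chain of the interferon gamma receptor, fell from 27.96 and 24.41 to 3.05 and 4.25 TPM (log2 fold change -2.56, adjusted p = 0.0054), and Il18rap, a chain of the interleukin 18 receptor, rose from 2.55 and 4.26 to 22.02 and 44.9 TPM (log2 fold change 2.91, adjusted p = 0.00452). The same pool thus held less RNA of 1 interleukin 2 receptor chain, Il2ra, and more of another, Il2rb. Il2rb, Il7r, Il9r and Ifngr2 lost their calls without any 1 of the 4 N and ACT_IL21 libraries (adjusted p = 0.0625 to 0.123). Il18rap lost its call without N replicate 1 or ACT_IL21 replicate 2 (adjusted p = 0.0633 to 0.0684).

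**Figure D4:**
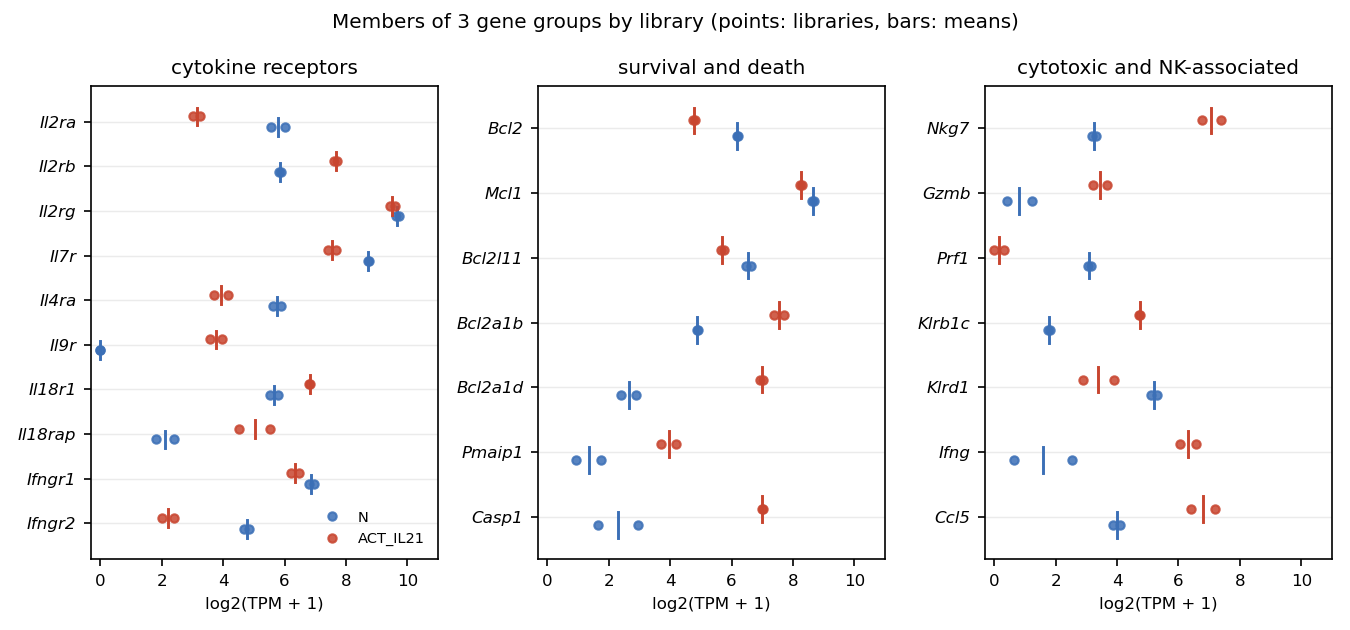
Log2(TPM + 1) (horizontal axis) of chosen members of 3 gene groups, with points for libraries (blue N, red ACT_IL21) and bars for pool means. Il2ra and Il2rb move in opposite directions on the left, Bcl2 and the Bcl2a1 genes in the middle, and Prf1 and Nkg7 on the right.

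Receptor and signalling genes of the T cell receptor pathway were called in both directions. Of the receptor complex list, 4 of 21 tested members (21 listed) rose and 1 fell, with a median log2 fold change of 0.47 (calls in either direction with 1 N or ACT_IL21 library left out: 0). Cd28, the main costimulatory receptor, measured 410.81 and 456.94 TPM in N and 866.9 and 802.68 in ACT_IL21 (log2 fold change 0.94, adjusted p = 0.00899). Ptpn22, a phosphatase that restrains receptor signals, measured 164.11 and 180.35 TPM in N and 337.71 and 306.55 TPM in ACT_IL21 (log2 fold change 0.90, adjusted p = 0.00968). Both rises were smaller than 1 log2 unit. Fyn, a SRC family kinase, and Lcp2, the adaptor SLP-76, rose by 0.84 and 0.81 on the log2 scale (adjusted p = 0.0172 and 0.0176). Ptpn22 overlaps Gm15472 on the same strand, and Fyn overlaps antisense entries. Cd28, Ptpn22, Fyn and Lcp2 lost their calls without any 1 of the 4 N and ACT_IL21 libraries (adjusted p = 0.0728 to 0.173).

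Immediate early genes were mixed. Of that list, 5 of 29 tested members (29 listed) rose and 1 fell, with a median log2 fold change of 0.48 (calls in either direction with 1 N or ACT_IL21 library left out: 0 to 2). Fosb, an AP-1 subunit, measured 6.18 and 6.46 TPM in N and 32.91 and 56.42 in ACT_IL21 (log2 fold change 2.59, adjusted p = 0.00574), Egr2, a zinc finger factor of receptor-stimulated cells, 13.35 and 16.09 TPM in N and 59.67 and 49.1 TPM in ACT_IL21 (log2 fold change 1.82, adjusted p = 0.00803), and Batf, an AP-1 partner, 37.94 and 30.18 TPM in N and 90.08 and 83.45 TPM in ACT_IL21 (log2 fold change 1.33, adjusted p = 0.0128). Myc, a driver of growth, fell from 81.69 and 48.72 to 24.16 and 22.13 TPM (log2 fold change -1.41, adjusted p = 0.0297). The early gene Nr4a1 measured 30.61 and 23.61 TPM in N and 20.66 and 26.1 TPM in ACT_IL21, with an adjusted p of 0.736. Fosb, Egr2, Batf and Myc lost their calls without any 1 of the 4 N and ACT_IL21 libraries (adjusted p = 0.0582 to 0.229).

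Of the regulators of G-protein signalling, 2 of 7 tested members (8 listed) rose and 0 fell, with a median log2 fold change of 0.29 (calls in either direction with 1 N or ACT_IL21 library left out: 0). Rgs1, which damps chemokine receptor signals, measured 46.53 and 74.82 TPM in N and 123.82 and 167.87 in ACT_IL21 (adjusted p = 0.027), and Rgs16 measured 0.29 and 0.13 TPM in N and 5.45 and 6.23 TPM in ACT_IL21 (adjusted p = 0.0134). No gene of the SOCS feedback list passed: 0 of 8 tested members (8 listed) rose and 0 fell, with a median log2 fold change of 0.02. Its most abundant members were Socs3, an inhibitor of cytokine receptor signals, and Socs4. Socs3 measured 30.34 and 14.47 TPM in N and 19.66 and 17.65 TPM in ACT_IL21. Socs4 measured 22.15 and 26.95 TPM in N and 27.47 and 25.71 TPM in ACT_IL21. The pools overlapped in both genes. Rgs1 lost its call without N replicate 1, N replicate 2, ACT_IL21 replicate 1, ACT_IL21 replicate 2 or ACT replicate 2 (adjusted p = 0.05 to 0.245). Rgs16 lost its call without any 1 of the 4 N and ACT_IL21 libraries (adjusted p = 0.102 to 0.149).

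Survival genes of the BCL2 family were called in both directions. Of that list, 3 of 15 tested members (17 listed) rose and 2 fell, with a median log2 fold change of 0.63 (calls in either direction with 1 N or ACT_IL21 library left out: 2). Bcl2, the antiapoptotic founder gene, measured 71.81 and 72.54 TPM in N and 26.12 and 27.38 TPM in ACT_IL21 (log2 fold change -1.40, SE 0.18, adjusted p = 0.00508). Bcl2l11, which codes for the proapoptotic BIM, fell from 87.35 and 98.4 to 49.15 and 53.15 TPM (adjusted p = 0.0327), and Pmaip1, which codes for NOXA, rose from 0.93 and 2.34 to 12.07 and 17.46 TPM (adjusted p = 0.0299). Members with the same role thus differed in direction, since the antiapoptotic A1 genes rose. Bcl2a1b measured 28.83 and 28.43 TPM in N and 209.65 and 165.08 TPM in ACT_IL21 (log2 fold change 2.66, adjusted p = 0.000286). Bcl2a1d measured 6.4 and 4.32 TPM in N and 129.29 and 122.1 TPM in ACT_IL21 (log2 fold change 4.34, adjusted p = 8.77e-05). Their coding sequences matched at 98.8% of 516 bases, so reads were shared between them by estimation. Bcl2a1b and Bcl2a1d kept their calls with any 1 of the 6 libraries left out. Bcl2, Bcl2l11 and Pmaip1 lost their calls without any 1 of the 4 N and ACT_IL21 libraries (adjusted p = 0.0705 to 0.295). Of the GIMAP GTPases, 1 of 8 tested members (8 listed) rose and 0 fell, with a median log2 fold change of -0.06 (calls in either direction with 1 N or ACT_IL21 library left out: 0), with Gimap7 at 97.99 and 110.1 TPM in N and 206.44 and 173.28 in ACT_IL21.

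Called cell cycle genes were all higher in ACT_IL21. Of the G2/M and spindle list, 10 of 25 tested members (25 listed) rose and 0 fell, with a median log2 fold change of 2.10 (calls in either direction with 1 N or ACT_IL21 library left out: 1 to 3). Mki67, the proliferation antigen, measured 4.02 and 2.58 TPM in N and 57.15 and 57.91 TPM in ACT_IL21 (log2 fold change 3.79, SE 0.27, adjusted p = 0.000297). Top2a, topoisomerase II alpha, measured 7.28 and 10.51 TPM in N and 52.49 and 55.85 TPM in ACT_IL21 (log2 fold change 2.50, adjusted p = 0.0015). The motors and spindle genes Kif11, Cenpe, Tpx2 and the ubiquitin-conjugating Ube2c rose too, from 1.87 and 2.21 TPM to 24.26 and 16.29 TPM for Kif11. Of the DNA replication and G1/S list, 4 of 27 tested members (27 listed) rose and 0 fell, with a median log2 fold change of 0.60 (calls in either direction with 1 N or ACT_IL21 library left out: 0). Tyms, thymidylate synthase, rose from 8.02 and 9.33 to 41.35 and 59.64 TPM (adjusted p = 0.00461), and Cdk6, a G1 kinase, from 11.82 and 10.43 to 41.48 and 36.57 TPM (adjusted p = 0.00636). Rrm2 and Mcm6 also rose (adjusted p = 0.0186 and 0.0416). Whether the share of cycling cells or the RNA per cell differed was not tested. Mki67 kept its call with any 1 of the 6 libraries left out. Kif11, Cenpe, Ube2c, Tyms, Cdk6 and Rrm2 lost their calls without any 1 of the 4 N and ACT_IL21 libraries (adjusted p = 0.0597 to 0.19). Top2a lost its call without either ACT_IL21 library (adjusted p = 0.0553 to 0.0567). Tpx2 lost its call without N replicate 2, ACT_IL21 replicate 1 or ACT_IL21 replicate 2 (adjusted p = 0.0841 to 0.132). Mcm6 lost its call without any 1 of the 6 libraries (adjusted p = 0.05 to 0.26).

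The 4 metabolic lists differed in their counts. Of the glycolysis list, 4 of 20 tested members (20 listed) rose and 1 fell, with a median log2 fold change of 0.46, counting 1 listed at 0 in N (calls in either direction with 1 N or ACT_IL21 library left out: 1). Pdk1, a kinase that inhibits pyruvate dehydrogenase, fell from 216.36 and 219.81 to 57.03 and 67.59 TPM (log2 fold change -1.80, SE 0.17, adjusted p = 0.00129). Hif1a, the oxygen-regulated factor, rose from 69.75 and 86.8 to 191.91 and 180.74 TPM (adjusted p = 0.00853), as did the enzyme genes Pgam1, Pfkp and Gapdh (adjusted p = 0.0111, 0.027 and 0.0493). Pfkp overlaps Pitrm1 on the opposite strand. Of the cholesterol synthesis list, 0 of 19 tested members (19 listed) rose and 1 fell, with a median log2 fold change of 0.17 (calls in either direction with 1 N or ACT_IL21 library left out: 0), with only the sterol exporter Abca1 past the threshold (5.87 and 5.62 TPM in N and 1.06 and 1.33 TPM in ACT_IL21, adjusted p = 0.0494). Of the secretory pathway list, 1 of 20 tested members (20 listed) rose and 0 fell, with a median log2 fold change of 0.22 (calls in either direction with 1 N or ACT_IL21 library left out: 0). This share was near the background, and the gene that rose was Atf6, a sensor of unfolded protein (7.51 and 5.84 TPM in N and 30.63 and 24.88 TPM in ACT_IL21). Of the amino acid transporter list, 2 of 9 tested members (10 listed) rose and 0 fell, with a median log2 fold change of 0.06 (calls in either direction with 1 N or ACT_IL21 library left out: 0). Slc1a5, a glutamine carrier, measured 46.82 and 38.3 TPM in N and 75.58 and 87.21 TPM in ACT_IL21 (adjusted p = 0.0316). Slc43a1, a carrier of large neutral amino acids, measured 0.53 and 0.25 TPM in N and 13.79 and 12.1 TPM in ACT_IL21 (adjusted p = 0.034). Pdk1 kept its call with any 1 of the 6 libraries left out. Hif1a, Pgam1, Pfkp, Atf6, Slc1a5 and Slc43a1 lost their calls without any 1 of the 4 N and ACT_IL21 libraries (adjusted p = 0.0569 to 0.276). Gapdh and Abca1 lost their calls without any 1 of the 6 libraries (adjusted p = 0.0522 to 0.333).

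Interferon response genes were called in both directions. Of that list, 3 of 30 tested members (30 listed) rose and 2 fell, with a median log2 fold change of 0.02 (calls in either direction with 1 N or ACT_IL21 library left out: 0 to 1). Ifit2, an interferon-induced RNA-binding protein, fell from 65.32 and 66.79 to 26.32 and 26.97 TPM (adjusted p = 0.00853), whereas the antiviral GTPase Mx1 rose from 2.82 and 1.49 to 14.28 and 16.7 TPM (adjusted p = 0.0111). Oas2 fell and Oas3 rose (log2 fold change -2.34 and 1.17, adjusted p = 0.0164 and 0.0156), and Ifi27l2a rose from 243.42 and 123.53 to 546.94 and 498.54 TPM (adjusted p = 0.0208). The other tested members were not past the threshold. Ifit2, Mx1, Oas2 and Oas3 lost their calls without any 1 of the 4 N and ACT_IL21 libraries (adjusted p = 0.0708 to 0.196). Ifi27l2a lost its call without N replicate 2, ACT_IL21 replicate 1 or ACT_IL21 replicate 2 (adjusted p = 0.0842 to 0.211).

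Called translation genes were all lower in ACT_IL21. Of the translation list, 0 of 20 tested members (20 listed) rose and 4 fell, with a median log2 fold change of -0.52 (calls in either direction with 1 N or ACT_IL21 library left out: 0). Rps6 measured 476.64 and 428.98 TPM in N and 279.23 and 265.21 TPM in ACT_IL21 (log2 fold change -0.73, adjusted p = 0.0343), Rps3 1199.38 and 1316.61 TPM in N and 790.55 and 823.73 TPM in ACT_IL21, Rpl3 2022.34 and 1842.35 TPM in N and 1229.39 and 1194.09 TPM in ACT_IL21, and the elongation factor gene Eef1b2 1692.39 and 1959.61 TPM in N and 1085.71 and 1169.37 TPM in ACT_IL21. Over the cytosolic ribosomal protein genes, 0 of 85 tested were higher and 9 (10.6%) were lower, with a median log2 fold change of -0.45, and 79 had a value below 0. Among all 1597 genes tested at 100 TPM and above in the higher pool, 63 were lower. The ribosomal protein genes took 13.03% and 11.24% of all TPM in the N libraries and 8.48% and 8.69% in the ACT_IL21 libraries. Because TPM sums to a fixed total, a share that falls leaves room for the rest, and the effect of this on other genes' values was not tested apart from the scaling alternatives. Rps6, Rps3, Rpl3 and Eef1b2 lost their calls without any 1 of the 4 N and ACT_IL21 libraries (adjusted p = 0.111 to 0.281).

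Markers of other cell types the gates could have held were examined. Of the B cell markers, 1 of 5 tested members (16 listed) rose and 0 fell, with a median log2 fold change of 0.06 (calls in either direction with 1 N or ACT_IL21 library left out: 0). Pax5 and Blk were listed at 0 in all 4 libraries, while Ighm measured 463.99 and 316.56 TPM in N and 335.62 and 334.23 in ACT_IL21. Cd22, an inhibitory receptor known from B cells, rose from 0 and 0.07 to 13.09 and 17.45 TPM (adjusted p = 0.00344). Summed over the list, the libraries measured 471.66 and 322.17 TPM in N and 358.23 and 362.25 TPM in ACT_IL21, most of it Ighm.

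Of the natural killer and NKT cell markers, 3 of 16 tested members (18 listed) rose and 2 fell, with a median log2 fold change of 0.25 (calls in either direction with 1 N or ACT_IL21 library left out: 2 to 3). Nkg7, a cytotoxic granule membrane protein, measured 8.9 and 8 TPM in N and 164.5 and 108.7 TPM in ACT_IL21 (log2 fold change 3.84, SE 0.24, adjusted p = 0.00022). Klrb1c, which codes for NK1.1, measured 2.56 and 2.38 TPM in N and 25.49 and 25.7 TPM in ACT_IL21 (log2 fold change 2.94, adjusted p = 0.000419), and the protease gene Gzmb 0.33 and 1.35 TPM in N and 8.37 and 11.66 TPM in ACT_IL21. Prf1, the pore-forming perforin, fell from 7.27 and 7.93 to 0.24 and 0 TPM (adjusted p = 0.0363), and Klrd1, which codes for CD94, from 33.29 and 38.02 to 6.42 and 13.87 TPM (adjusted p = 0.0198). Members of the cytotoxic programme thus moved in opposite directions. The NKT factor Zbtb16 measured 0 and 0.18 TPM in N and 5.91 and 1.7 in ACT_IL21 (adjusted p = 0.0836), and Ncr1 measured at most 0.79 TPM in N and was listed at 0 in ACT_IL21. The list summed to 71.16 and 84.41 TPM in N and 241.57 and 197.31 TPM in ACT_IL21, and its part in the rises of Ifng, Ccl5 and Il4 was not tested. Nkg7 and Klrb1c kept their calls with any 1 of the 6 libraries left out. Gzmb and Prf1 lost their calls without any 1 of the 4 N and ACT_IL21 libraries (adjusted p = 0.0597 to 0.276). Klrd1 lost its call without N replicate 1, N replicate 2 or ACT_IL21 replicate 1 (adjusted p = 0.0938 to 0.21).

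No tested member of the myeloid, erythroid and platelet, or CD8 and plasma cell lists passed. Only 4 myeloid members (16 listed) and 2 CD8 and plasma cell members (8 listed) were tested. Over all genes tested, 5.09% were called, so no calls among so few members is no result about these lists. Lyz1, Cd14, Ly6g, S100a8 and S100a9 were listed at 0 in all 4 libraries, and Cst3 was the most abundant tested myeloid member (31.62 and 26.51 TPM in N and 48.2 and 50.97 TPM in ACT_IL21). The erythroid list summed to 89.42 and 28.66 TPM in N and 157.61 and 48.8 TPM in ACT_IL21, with the first library of each pool the higher. Of that list, 0 of 7 tested members (11 listed) rose and 0 fell, with a median log2 fold change of 0.94. Cd8b1 measured 26.68 and 18.73 TPM in N and 9.8 and 3.41 in ACT_IL21 (adjusted p = 0.0863). Whether the cells with these transcripts bear on any rise or fall was not tested.

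**Figure D5:**
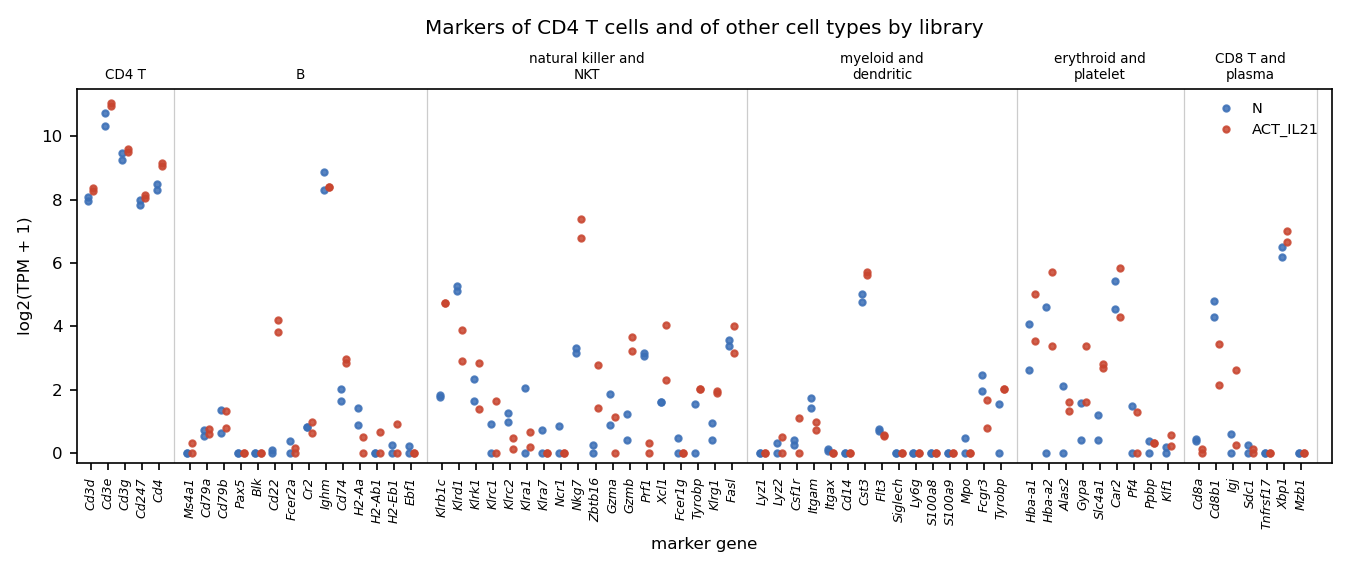
Log2(TPM + 1) (vertical axis) of CD4 T cell markers and of markers of B, natural killer and NKT, myeloid and dendritic, erythroid and platelet, and CD8 T and plasma cells in each library (blue N, red ACT_IL21). CD4 T cell markers are high in all 4 libraries. Among the natural killer and NKT cell markers, Nkg7 and Klrb1c stand higher in the ACT_IL21 libraries than in N, and Prf1 and Klrd1 stand lower.

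Some called genes lay near a gene called the same way. Of 12137 tested genes with 1 GENCODE position, 635 were called. A pair joins a called gene to the next called gene on the chromosome, and genes not called can lie between them. Within 100 kb, 52 such pairs were called in the same direction, some of them holding the sort marker Il21 or Icos. They included S100a4 with S100a6, S100a11 with S100a10, Casp1 with Casp4, Il18r1 with Il18rap, and Igfbp4 with Ccr7, of which only the last pair fell. No share over unchanged genes was computed, and pairs such as Maf with Gm15655 overlap each other, so the count is a description.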

How the data were processed

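Messenger RNA of FACS-sorted CD4+ cells was amplified with the NuGEN Ovation kit, per the labels' protocols. The authors deposited gene-level TPM in 1 table; per the submitters' processing notes, Trimmomatic, Bowtie, RSEM and the build GRCm38 were used, with no versions; the annotation and strand setting are not stated. Reads shared by similar genes are divided by RSEM, so near copies are uncertain. The depth of each library is unknown, so no counting interval is given.

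Entries with a repeated symbol (139 of 38355) were summed into their symbol, and the 13311 genes that reached 1 TPM in 2 or more of the 6 libraries were tested. limma 3.58.1 in R 4.3.3 was fitted to log2(TPM + 1) of all 6 libraries with a pool term and an intensity trend (3 residual and 4.841 prior degrees of freedom). Two-sided tests were used, with Benjamini-Hochberg adjustment over these genes and a threshold of 0.05. The script was tested on simulated data. Levels are TPM of each library. Positions come from GENCODE M21, and promoters from RefSeq GRCm38.p6. Sequence identities were computed with Biopython 1.88.

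Named genes were Maf, Gpm6b and Ly6c1; the 15 largest and 15 smallest log2 fold changes among called genes with a mean of at least 5 TPM in the higher pool and no overlap between pools, leaving out sort markers, provisional symbols and receptor segments; in each list, at most 6 members, those of lowest p; and the 2 most abundant members of a list with none past the threshold. The members, lists and rule were chosen with earlier results of these data known. A few genes that the rule names are counted in their lists but not reported here. Alternatives changed the pseudocount, filter, scaling, libraries, block and trend.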

Additional observations from a re-analysis of the deposited data

How the results depend on the processing

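The direction of all 128 named genes past the threshold held in all 16 alternatives run, and 37 of them passed the threshold in all 16. The sort markers Il21 and Icos are counted in both the 128 and the 37 and are no finding. The number of genes differing between ACT_IL21 and N was 677, and with no filter on low values it was 410 (321 higher, 89 lower). Without the intensity trend it was 499, with 105 lower. Leaving out 1 library gave 75 to 728 genes differing between ACT_IL21 and N, 61 to 545 higher and 13 to 183 lower; the lowest counts came from leaving out an N or ACT_IL21 library, which leaves fewer samples. The other alternatives stayed within 1.5 times. Without the third pool the count was 715. Of genes that did not pass, the Socs4 log2 fold change turned to -0.052 with quantile normalization, and the Car2 log2 fold change to -0.036 with median-of-ratios scaling and -0.106 with quantile normalization. With 1 library left out, the Socs4 log2 fold change ranged from -0.019 to 0.252, the Socs3 log2 fold change from -0.675 to 0.344, the Car2 log2 fold change from -0.705 to 0.844 and the Hba-a2 log2 fold change from -0.063 to 4.542; the cause was not tested. Whether the replicate numbers pair the pools is not in the labels. The correlation of replicate differences was -0.004 between N and ACT_IL21 and 0.21 between N and the third pool. Between the third pool and ACT_IL21 it was 0.001. Such correlations across genes cannot decide whether libraries were paired. With a replicate block the count was 732 (550 higher, 182 lower). The precision is limited by 2 libraries a pool and by an unknown depth.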

Other observations

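Of the 59 genes that passed in every fit that left out 1 library, 24 were in no list, 21 higher and 3 lower, and those named here were chosen after their values were seen. Casp4, an inflammatory caspase next to Casp1, measured 4.39 and 7.09 TPM in N and 127.81 and 140.8 in ACT_IL21 (log2 fold change 4.36, adjusted p = 0.000297). Cybb, the catalytic subunit of the phagocyte NADPH oxidase, measured 0.14 and 0.58 and 32.62 and 23.51 TPM, and Myo1f, an unconventional myosin, 1.17 and 0.89 and 47.45 and 46.07 TPM. Eea1, an early endosome tether, measured 3.33 and 2.74 and 67.6 and 71.77 TPM (log2 fold change 4.13), and Tiam1, an exchange factor for RAC, 8.41 and 6.71 and 74.4 and 81.28 TPM (log2 fold change 3.21). P2rx7, the ATP-gated channel, rose from 18.46 and 16.73 to 148.72 and 120.15 TPM, Tbc1d4, a RAB GTPase-activating protein, from 18.88 and 18.42 to 149.06 and 136.1 TPM, and the protease gene Adam19 from 21.13 and 18.08 to 113.93 and 130.74 TPM. Each had both ACT_IL21 libraries above both N libraries, as had 31.5% of all genes tested, and these genes were chosen for passing every fit.

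The 3 that fell were Rnf130, a ubiquitin ligase, St8sia6, a sialyltransferase, and Tgtp1, an interferon-induced GTPase. Rnf130 measured 39.95 and 41.09 TPM in N and 5.62 and 5.73 in ACT_IL21 (log2 fold change -2.64, adjusted p = 0.00093). St8sia6 measured 80.47 and 93.12 and 17.25 and 18.17 TPM, and Tgtp1 171.13 and 201.11 and 43.71 and 38.62 TPM. Tcrg-C1 and Tcrg-C2, constant genes of the gamma chain of the other T cell receptor type, also rose, with Tcrg-C1 at 5.22 and 5.62 TPM in N and 31.45 and 26.51 in ACT_IL21 (adjusted p = 0.00234) and Tcrg-C2 at 4.33 and 2.92 and 31.51 and 35.69 TPM (adjusted p = 0.000816). Tgtp2, a neighbour of Tgtp1, was called lower too. How RSEM divided any shared reads between Tgtp1 and Tgtp2, or between Tcrg-C1 and Tcrg-C2, was not examined.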
